A study of Rattus norvegicus with 8 samples.

Results

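The genes described here are members of the BTB-kelch protein family together with Cul3, the cullin that these proteins bind. Of 10 genes listed by symbol (Klhl20, Klhl33, Enc1, Klhl7, Klhl9, Klhl10, Klhl12, Klhl13, Klhl22 and Cul3), 9 had a row in the table of 24059 genes, each a single row annotated as protein coding. Klhl9 had no row under its symbol or its RefSeq gene identifier and was not analysed here. Klhl20, Klhl33 and Enc1 were chosen by their measured difference between doxorubicin and control, which had passed the threshold in an earlier pass over these data, and the others are listed by name. The differences below therefore describe the genes and test nothing about them.

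Transcripts of GFP-positive testis germ cells were counted by sequencing polyA-enriched RNA from prepubertal Sprague-Dawley rats. Rats of both groups carried the GCS-EGFP transgene, a germ cell reporter. The treated group was 4 rats (numbers 2, 3, 6 and 8) given doxorubicin at 5 mg/kg on postnatal day 6, and the control group was 4 rats (numbers 1, 4, 5 and 9) given vehicle on the same day, and cells of both groups were isolated 24 h later. Doxorubicin is an anthracycline that poisons topoisomerase II and breaks DNA. The labels do not name the promoter that drives the reporter, and each library came from 1 rat. The deposited values are estimated counts, and abundance is given as CPM (counts-per-million) after TMM scaling, which corrects for differences in library composition. CPM is not divided by transcript length, so levels are compared between rats and not between genes.

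BTB-kelch proteins are substrate adaptors of a ubiquitin ligase. The BTB domain binds the cullin Cul3, which holds the ring protein Rbx1 and through it the ubiquitin-conjugating enzyme, and the kelch repeats form a propeller that binds the protein to be modified. Attachment of Nedd8 to the cullin switches the ligase on, and exchange of adaptors on the shared cullin sets which substrates are marked. In the testis the family is best known through Klhl10, which male mice need for spermatid maturation.

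The promoters of the pair of genes with the higher values after doxorubicin that had an entry in the RefSeq promoter table (build GRCr8) are shown because both genes were higher in every treated rat, while their promoters differ in base composition. Each runs from 250 bases before to 50 bases after the annotated start, 5′ to 3′ on the minus strand. Capitals mark matches to the motifs described after the sequences. Klhl20 lies at chr13:75941591-75941890 and Klhl33 at chr15:26589717-26590016.
Klhl20: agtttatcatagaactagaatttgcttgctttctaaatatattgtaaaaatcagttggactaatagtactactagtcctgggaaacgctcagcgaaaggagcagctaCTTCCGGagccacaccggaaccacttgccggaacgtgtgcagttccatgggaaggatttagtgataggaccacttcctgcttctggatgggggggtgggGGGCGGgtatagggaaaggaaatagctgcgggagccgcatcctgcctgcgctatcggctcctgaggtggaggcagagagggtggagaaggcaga
Klhl33: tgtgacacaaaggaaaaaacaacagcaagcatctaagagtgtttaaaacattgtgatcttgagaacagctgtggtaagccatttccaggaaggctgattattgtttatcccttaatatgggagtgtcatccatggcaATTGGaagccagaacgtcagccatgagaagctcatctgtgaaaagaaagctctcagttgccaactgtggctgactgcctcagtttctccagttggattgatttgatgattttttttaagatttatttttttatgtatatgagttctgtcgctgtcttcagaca

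The Klhl20 promoter held 11 CpG dinucleotides and had a GC content of 51.7%. That of Klhl33 held 2 CpG dinucleotides and had a GC content of 39.3%, below the lower quartile of 44.7% over the 33469 promoters of this length. The motifs were searched on both strands. In the Klhl20 promoter a GC box (GGGCGG, present in 33.1% of all promoters) and an ETS site (CCGGAAG, present in 8.75%) were found, with no overlap between them. In the Klhl33 promoter a CCAAT box (CCAAT, present in 37.5%) was found. The decameric half-site of the p53 response element (RRRCWWGYYY) was present in 7.98% of all promoters. In these letters R is A or G, W is A or T and Y is C or T. This half-site had no match in any of the 8 promoters available for the listed genes, nor did the TATA box (TATAAA, present in 14.2%). The full p53 element and sequence outside these windows were not searched. The core of the antioxidant response element (TGACNNNGC, present in 12.1%) matched in 2 of the 8, those of Klhl9 and Klhl13. Enc1 and Cul3 had no entry in that table.

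Klhl20 (ENSRNOG00000002875.8) was higher in every doxorubicin rat than in any control rat. It is an adaptor whose substrates in human cells include the death-associated kinase DAPK1 and the tumour suppressor PML. It measured 58.5, 51.6, 51.0 and 52.8 CPM in doxorubicin rats 2, 3, 6 and 8, against 41.0, 42.4, 41.3 and 44.4 CPM in control rats 1, 4, 5 and 9. Rat 2 was the highest of the treated rats, and the other 3 lay within 2 CPM of each other. The means were 53.5 ± 3.41 CPM in doxorubicin rats and 42.3 ± 1.52 CPM in control rats (SD, n = 4 each). The log2 fold change from edgeR was 0.34 ± 0.05 (SE), or 26.6% higher. The deposited values of Klhl20 were not whole numbers in any of the 8 libraries, so they are estimates and not plain tallies of reads, and how its reads were assigned is not given in the sources at hand.

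Klhl33 (ENSRNOG00000025868.6) had the largest relative difference of the 9 genes and few counts. It is a BTB-kelch protein whose substrates are little described. It had 99, 33, 32 and 48 counts in doxorubicin rats 2, 3, 6 and 8, against 11, 12, 8 and 12 counts in control rats 1, 4, 5 and 9. As abundance this was 1.71, 0.595, 0.763 and 0.869 CPM in doxorubicin rats, against 0.193, 0.213, 0.152 and 0.288 CPM in control rats. Rat 2 stood at 2.31 times the mean of the other 3 treated rats, and the lowest treated rat was still above the highest control rat. The means were 0.985 ± 0.498 CPM in doxorubicin rats and 0.211 ± 0.057 CPM in control rats (SD, n = 4 each). The log2 fold change from edgeR was 2.24 ± 0.37 (SE) with a 95% interval from 1.44 to 3.04. For a single library at the group's mean count, the counting error alone was 13.7% in doxorubicin rats and 30.5% in control rats. The filter on low counts asked for 0.181 CPM, or 10 counts in a library of median size, in at least 4 libraries, and 4 doxorubicin but only 3 control libraries reached it, so the gene passed with the help of the group in which it was high.

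Enc1 (ENSRNOG00000016541.6) was higher in every doxorubicin rat by a small and even amount. It is an actin-binding BTB-kelch protein of the nervous system that was also described among the genes induced by p53 in human cells, and it lowers Nrf2 protein there. It measured 323.5, 316.7, 300.9 and 311.2 CPM in doxorubicin rats 2, 3, 6 and 8, against 257.4, 278.5, 274.6 and 257.5 CPM in control rats 1, 4, 5 and 9. The lowest treated rat lay 22.4 CPM above the highest control rat. The means were 313.1 ± 9.57 CPM in doxorubicin rats and 267.0 ± 11.1 CPM in control rats (SD, n = 4 each). The log2 fold change from edgeR was 0.23 ± 0.04 (SE), or 17.2% higher.

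**Figure D1:**
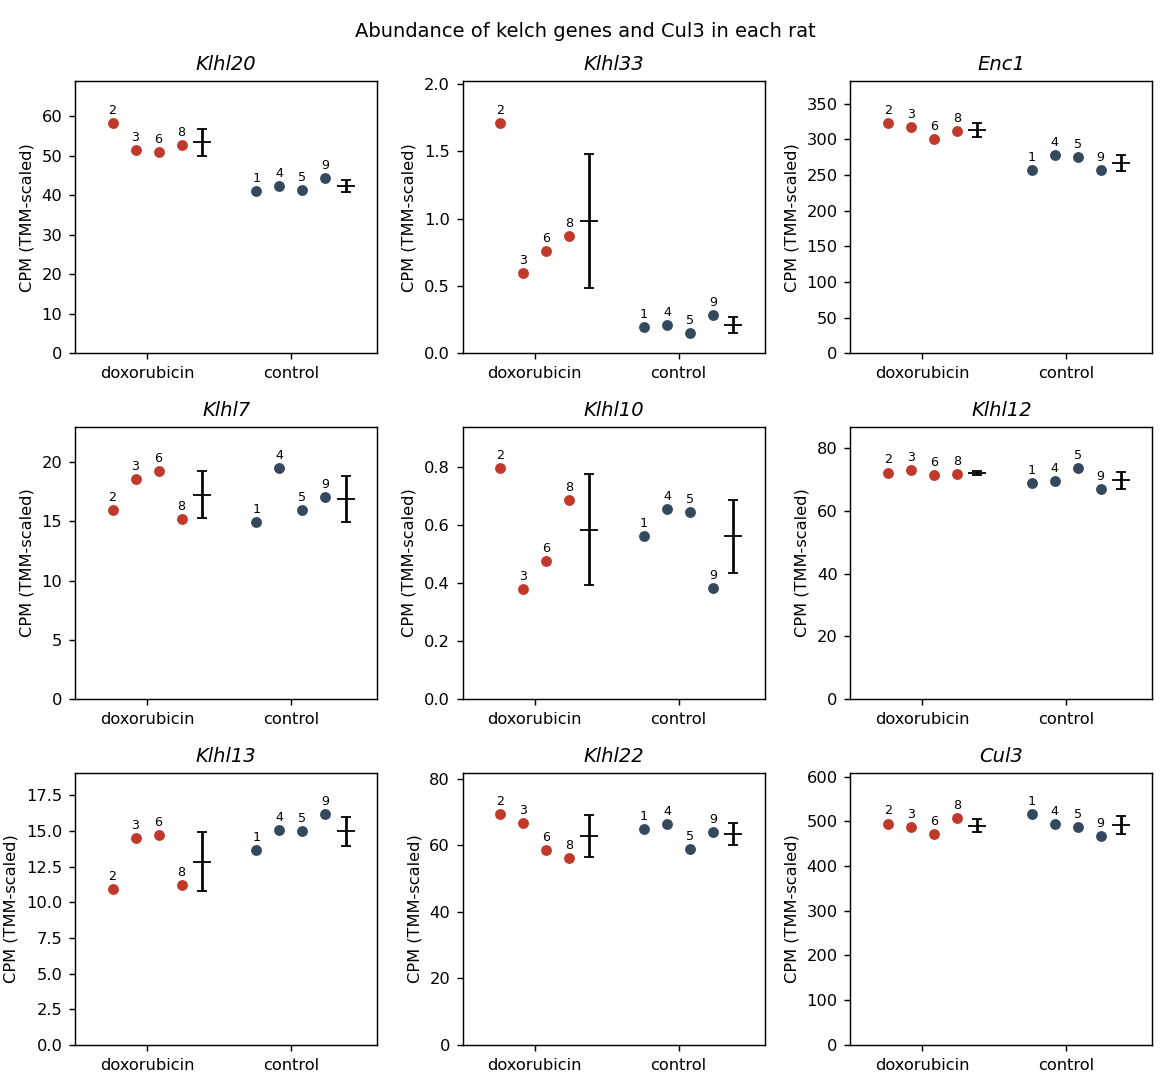
Abundance (CPM, TMM-scaled, linear axis from 0) of the 9 genes in each library. Points are rats with their numbers, doxorubicin left and control right, and the bar beside each group is its mean ± SD (n = 4). Klhl20, Klhl33 and Enc1 are the panels in which the groups do not overlap, and in Klhl33 doxorubicin rat 2 stands at 1.71 CPM above the other treated rats.

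Over all 16976 genes tested, 0.112% were past the edgeR threshold (Benjamini-Hochberg adjusted p below 0.05) in either direction, and 3 of the 9 genes were: Klhl20, Klhl33 and Enc1. In 2.77% of all genes tested every doxorubicin rat lay above every control rat, and the same 3 of the 9 genes were in this position. These counts follow from how the genes were listed. The calls depended on which libraries were in the fit. DESeq2, which called 1.02% of all genes, called all 3, while limma-voom, which called 0.141%, called Klhl20 and Enc1 but not Klhl33. With edgeR, all 3 passed without doxorubicin rat 2, only Klhl33 without doxorubicin rat 3, and 0 of the 9 passed when any single control rat, doxorubicin rat 6 or doxorubicin rat 8 was left out, although the 3 log2 fold changes stayed positive throughout. Their lowest values were 0.29 for Klhl20 and 1.82 for Klhl33, both without doxorubicin rat 2, and 0.21 for Enc1 without control rat 1.

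Cul3 (ENSRNOG00000015633.9), the cullin scaffold that all the adaptors share, had nearly equal means in both groups. It measured 495.0, 487.5, 471.3 and 507.9 CPM in doxorubicin rats 2, 3, 6 and 8, against 515.8, 492.9, 486.7 and 467.4 CPM in control rats 1, 4, 5 and 9. The groups overlapped over nearly their whole range. The means were 490.4 ± 15.3 CPM in doxorubicin rats and 490.7 ± 19.98 CPM in control rats (SD, n = 4 each), and the 95% interval of the log2 fold change ran from -0.08 to 0.08. With Cul3 set as the yardstick within each library, which removes any dependence on scaling, Klhl20 stood at 109.0 ± 6.31 counts per 1000 Cul3 counts in doxorubicin rats and 86.3 ± 6.38 in control rats. Enc1 stood at 638.5 ± 18.4 counts per 1000 Cul3 counts in doxorubicin rats and 544.8 ± 31.2 in control rats, and Klhl33 at 2.00 ± 0.99 in doxorubicin rats and 0.433 ± 0.131 in control rats (SD, n = 4 each). For these 3 adaptors the ratio did not overlap between the groups, and for the other 5 it did. The 3 were chosen by their difference and Cul3 hardly differed, so the ratio repeats the CPM values and is no separate support. The share of all genes without overlap was not computed for this ratio.

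Klhl13 (ENSRNOG00000014029.9) had the lowest log2 fold change of the 9 genes, without passing the threshold. With its close relative Klhl9 it directs the mitotic kinase Aurora B in human cells. It measured 10.9, 14.5, 14.7 and 11.2 CPM in doxorubicin rats 2, 3, 6 and 8, against 13.7, 15.1, 15.0 and 16.2 CPM in control rats 1, 4, 5 and 9. Doxorubicin rats 2 and 8 were below every control rat, and doxorubicin rats 3 and 6 lay among the controls. The means were 12.9 ± 2.05 CPM in doxorubicin rats and 15.0 ± 1.03 CPM in control rats (SD, n = 4 each), and the 95% interval of the log2 fold change ran from -0.45 to 0.01.

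Klhl7 (ENSRNOG00000010453.7), an adaptor mutated in human retinitis pigmentosa, measured 16.0, 18.6, 19.2 and 15.2 CPM in doxorubicin rats 2, 3, 6 and 8, against 15.0, 19.5, 15.9 and 17.1 CPM in control rats 1, 4, 5 and 9. Within the treated group rats 2 and 8 were again the lower pair and rats 3 and 6 the higher pair, and the groups overlapped. The log2 fold change was 0.03 ± 0.10 (SE, edgeR), with a 95% interval from -0.18 to 0.24. Klhl10 (ENSRNOG00000016749.5), the family member known from mouse spermatids, was rare in these prepubertal germ cells. It had 46, 21, 20 and 38 counts in doxorubicin rats 2, 3, 6 and 8, against 32, 37, 34 and 16 counts in control rats 1, 4, 5 and 9. In CPM its means were 0.585 ± 0.191 in doxorubicin rats and 0.562 ± 0.126 in control rats (SD, n = 4 each). At this depth only a large difference was detectable, since the 95% interval of the log2 fold change ran from -0.54 to 0.65.

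Klhl12 (ENSRNOG00000004193.7), which modifies the coat protein Sec31 and the Wnt mediator Dishevelled in human cells, was the least variable member within the treated group. It lay between 71.4 and 73.1 CPM in doxorubicin rats and between 67.0 and 73.6 CPM in control rats. The coefficient of variation was 0.971% in doxorubicin rats and 4.02% in control rats. In doxorubicin rats it lay below the counting error of a single library at the mean count, 1.62%. The closeness of these values therefore cannot be read as a low variability of the gene. The 95% interval of the log2 fold change ran from -0.04 to 0.13. Klhl22 (ENSRNOG00000001878.8), which acts on the mitotic kinase PLK1 in human cells, measured 69.4, 66.7, 58.7 and 56.2 CPM in doxorubicin rats 2, 3, 6 and 8, against 65.0, 66.4, 58.9 and 64.0 CPM in control rats 1, 4, 5 and 9. Treated rats lay both above and below all controls, and the 95% interval of the log2 fold change ran from -0.16 to 0.13. Klhl7 and Klhl12, like Klhl20, had estimated counts that were not whole in all 8 libraries, while the other 6 genes had whole counts to within 1e-06.

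**Figure D2:**
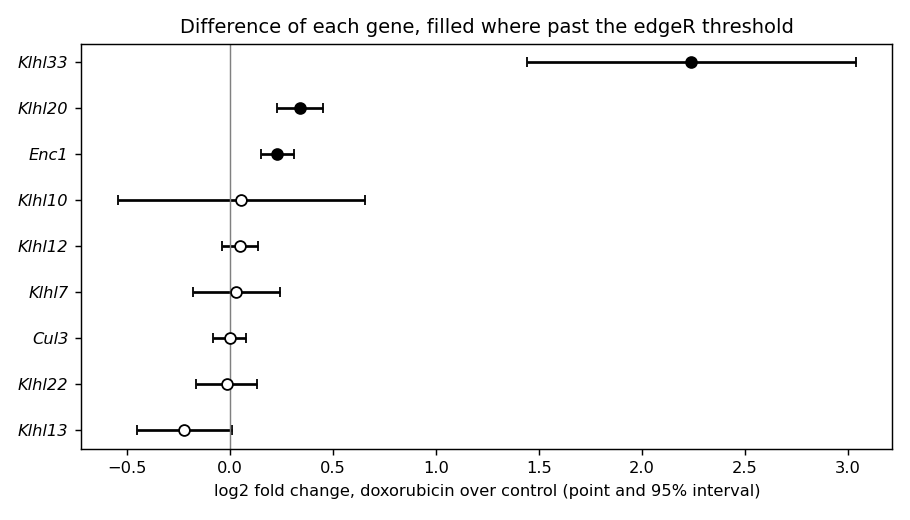
Log2 fold change of each of the 9 genes, doxorubicin over control, with its 95% interval (edgeR, 4 rats a group). Filled points mark Klhl33, Klhl20 and Enc1, past the threshold over all genes, and the intervals of the other 6 genes include 0.

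Within the treated group the rats differed in how far the higher genes stood above the controls. On the log2 scale Klhl33 deviated from the control mean by 2.84 in doxorubicin rat 2, and by 1.37, 1.71 and 1.89 in doxorubicin rats 3, 6 and 8. Klhl20 deviated by 0.47 in rat 2, and by 0.29, 0.27 and 0.32 in rats 3, 6 and 8. The mean of 8 well-known p53 targets (Cdkn1a, Mdm2, Ccng1, Eda2r, Aen, Bbc3, Fas and Bax) deviated by 2.36 in rat 2, and by 1.43, 1.49 and 1.68 in rats 3, 6 and 8. In each of these 3 measures rat 2 was highest and rat 8 second. Enc1 kept a flatter profile, with 0.28 in rat 2, and 0.25, 0.17 and 0.22 in rats 3, 6 and 8. The part of rat 2 in the group differences was not tested beyond leaving that library out.

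**Figure D3:**
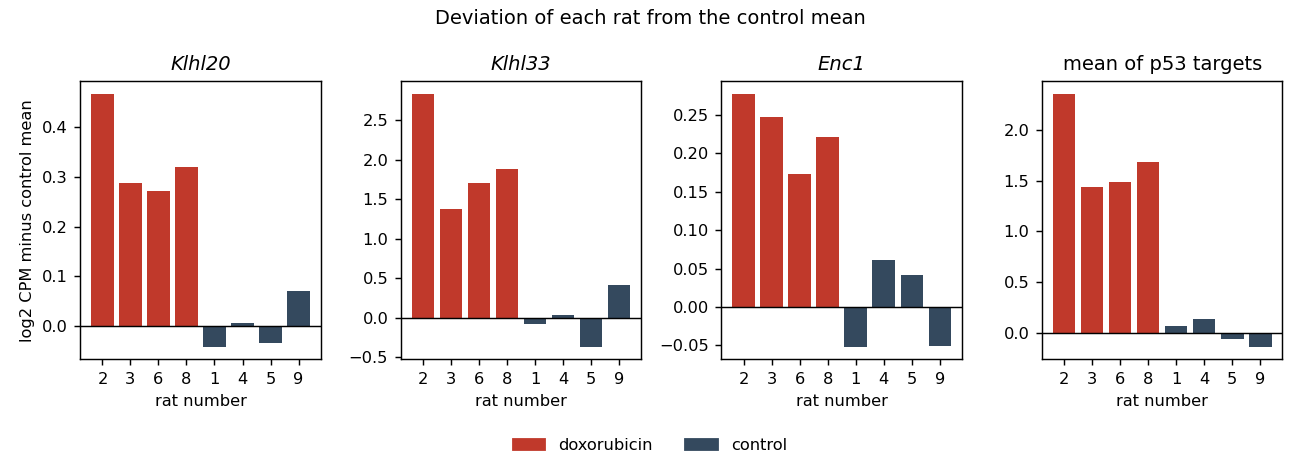
Deviation of each rat from the control mean in log2 CPM, for Klhl20, Klhl33, Enc1 and the mean of 8 p53 targets, doxorubicin rats left of control rats. The vertical scales differ between panels. Rat 2 has the highest bar in all 4 panels, 2.84 for Klhl33 and 2.36 for the p53 targets.

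Of the lists examined, the p53 targets had the highest median. Of the 8, 3 passed edgeR over all genes, all higher (Eda2r, Ccng1 and Aen), 7 passed DESeq2 and 4 passed limma-voom. Of all genes tested, 0.112%, 1.02% and 0.141% passed these tools. In 7 of the 8 every doxorubicin rat lay above every control rat, as in 2.77% of all genes tested. The median log2 fold change of the 8 was 2.18 beside -0.0047 over all genes tested. The log2 fold change of 2.24 of Klhl33 lay in the wide range of the p53 targets, which ran from 0.28 for Mdm2 to 3.10 for Bbc3. That of Klhl20, at 0.34, lay near its lower end, and that of Enc1, at 0.23, lay below the range. The 3 genes were listed because of these differences, so their places beside that range are descriptions only. A link to p53 was not tested. The genes whose pattern over the 8 libraries was most like that of Klhl20, among 13561 genes with a mean of at least 1 CPM, were Slc4a1, Rnf169 and Cpt1c (Pearson's r = 0.992, 0.991 and 0.985 on log2 CPM). For Klhl33 they were Jund, Ppm1n and Cpt1c (r = 0.990 for all 3), and for Enc1 they were Dcps, Tert and Poglut1 (r = 0.968, 0.966 and 0.966). These r values are descriptions, since the 8 points share the treatment contrast and, for Klhl20 and Klhl33, the high value of rat 2. Between members the same measure was 0.990 for Klhl20 and Klhl33, 0.908 for Klhl20 and Enc1 and 0.865 for Klhl33 and Enc1.

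Among the other kelch genes no gene passed the threshold. Of 58 listed, 57 were in the table and 52 were tested. None passed edgeR, DESeq2 or limma-voom over all genes, where 0.112%, 1.02% and 0.141% of all genes passed. At an unadjusted p below 0.05, 1 was higher and 3 were lower, where 6.76% of all genes reached that level in either direction. Their median log2 fold change was -0.03, with 17 positive and 35 negative. Keap1, the adaptor that holds down Nrf2, stood at 8.77 ± 1.01 CPM in doxorubicin rats and 8.65 ± 0.54 CPM in control rats. Klhl11, a family member transcribed in the testis, stood at 61.9 ± 4.59 CPM in doxorubicin rats and 66.2 ± 2.92 CPM in control rats, and Klhl21, an adaptor for Aurora B in human cells, at 55.4 ± 6.12 CPM in doxorubicin rats and 50.6 ± 5.17 CPM in control rats (SD, n = 4 each). Ivns1abp had a log2 fold change of -0.01 ± 0.04 and the muscle gene Klhl41 one of 0.14 ± 0.22 (SE, edgeR), Klhl41 at under 1 CPM. The single gene higher at an unadjusted p below 0.05 was Klhl26, named after its values were seen. It measured 64.8, 49.2, 46.3 and 48.0 CPM in doxorubicin rats 2, 3, 6 and 8, against 46.9, 41.1, 41.0 and 43.2 CPM in control rats 1, 4, 5 and 9 (edgeR adjusted p over all genes = 0.584). Here too rat 2 was the highest. The 3 genes lower at that level, also named after their values were seen, were Klhl25, Kbtbd8 and Klhdc4. Klhl25 had a log2 fold change of -0.18 ± 0.07 (SE, edgeR adjusted p over all genes = 0.671). For Kbtbd8 it was -0.16 ± 0.07 (SE, edgeR adjusted p = 0.716), and for Klhdc4 -0.11 ± 0.04 (SE, edgeR adjusted p = 0.666). In all 3, as in Klhl26, the groups overlapped.

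The machinery that the adaptors share gave no call. Of 32 genes of the cullin core, its ring proteins and the Nedd8 cycle, 0 passed edgeR, DESeq2 or limma-voom over all genes, and 0 had an unadjusted edgeR p below 0.05. Of all genes tested, 0.112%, 1.02% and 0.141% passed these tools, and 6.76% had an unadjusted edgeR p below 0.05. At such shares few or no calls would come from lists of this size. The log2 fold changes of the 32 genes ran from -0.13 for Dcun1d2 to 0.11 for Glmn, with a median of -0.003. Rbx1, the ring protein, had a log2 fold change of -0.05 ± 0.06, Nedd8 one of -0.07 ± 0.04, Cand1, which exchanges adaptors, one of 0.01 ± 0.04, and Cul1 one of -0.03 ± 0.03 (SE, edgeR). Of 25 Cul3 adaptors and other BTB proteins without kelch repeats, 0 passed with any of these tools and 0 had an unadjusted edgeR p below 0.05. Their log2 fold changes ran from -0.16 for Abtb2 to 0.11 for Kctd3. Spop had one of -0.03 ± 0.04 and Kctd10 one of 0.04 ± 0.04 (SE, edgeR).

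Transcripts of proteins reported as substrates of the listed adaptors were examined as well, with 14 tested. With edgeR 0 passed over all genes, where 0.112% of all genes did. At an unadjusted p under 0.05 there were 2, both higher, and the single DESeq2 call, also higher, was Plk1. Of all genes tested, 6.76% and 1.02% reached these 2 levels in either direction. Plk1, a mitotic kinase acted on by Klhl22, measured 174.1, 157.1, 156.5 and 154.1 CPM in doxorubicin rats 2, 3, 6 and 8, against 141.3, 134.2, 118.5 and 122.7 CPM in control rats 1, 4, 5 and 9. Its groups did not overlap, and 2.77% of all genes tested also had every doxorubicin rat above every control rat. The log2 fold change of Plk1 was 0.31 ± 0.06 (SE, edgeR adjusted p = 0.0801). With 1 library left out, Plk1 passed edgeR only without control rat 1, the control in which it was highest. Dapk1, a substrate of Klhl20 and a kinase that promotes cell death, measured 22.8, 14.7, 13.6 and 17.5 CPM in doxorubicin rats, against 10.9, 13.7, 11.6 and 13.9 CPM in control rats. Its groups overlapped, with a log2 fold change of 0.46 ± 0.16 (SE, edgeR adjusted p = 0.517), and rat 2 was again the highest. Nfe2l2, which encodes Nrf2, had a log2 fold change of 0.10 ± 0.05, Aurkb one of 0.06 ± 0.04, Pml one of 0.12 ± 0.13, Sec31a one of -0.03 ± 0.04 and Tut1, a substrate of Klhl7, one of -0.03 ± 0.04 (SE, edgeR), with none past the threshold.

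**Figure D4:**
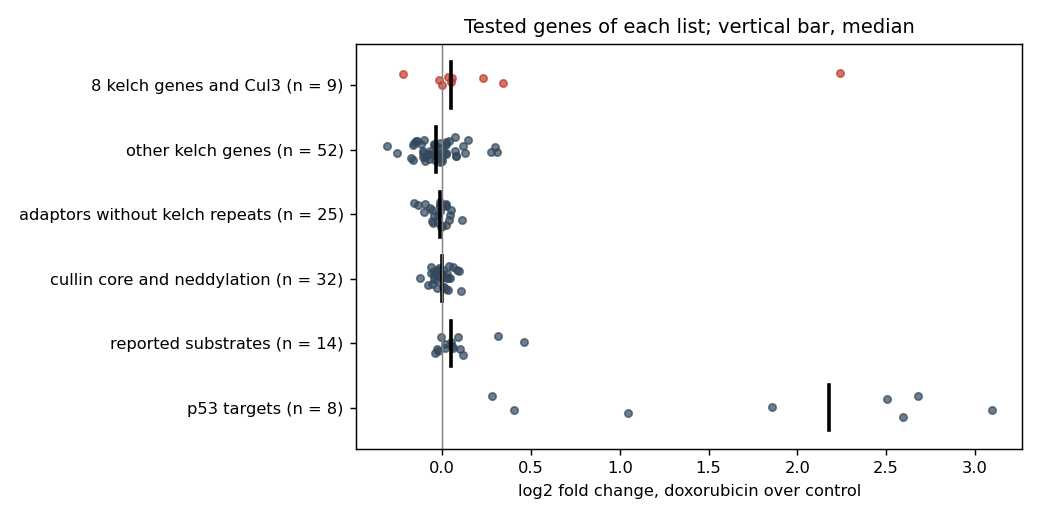
Log2 fold change, doxorubicin over control, of every tested gene in each list, with 1 point a gene and the median as a vertical bar (the vertical scatter within a row has no meaning). The other kelch genes, adaptors, cullin genes and substrates lie between -0.31 and 0.46, while Klhl33 at 2.24 lies within the range of the p53 targets.

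Libraries held 41253800 to 58871100 counts, and 1 CPM was 41.3 counts in the smallest. All 7 germ cell markers were above 10 CPM, and their sum was 1846 to 1919 CPM in doxorubicin libraries and 1811 to 1896 CPM in control libraries. Marker sums of other cell types were 63.8 to 75.5 CPM in doxorubicin libraries and 66.6 to 73.8 CPM in control libraries for Sertoli cells, and 92.6 to 103.4 CPM in doxorubicin libraries and 82.3 to 97.3 CPM in control libraries for endothelial cells. They were 13.8 to 26.6 CPM in doxorubicin libraries and 12.5 to 17.3 CPM in control libraries for peritubular myoid cells, and 4.61 to 9.26 CPM in doxorubicin libraries and 6.16 to 7.76 CPM in control libraries for Leydig cells. They were 4.02 to 4.79 CPM in doxorubicin libraries and 3.49 to 4.02 CPM in control libraries for macrophages and leukocytes, and 9.35 to 15.1 CPM in doxorubicin libraries and 7.69 to 9.81 CPM in control libraries for erythroid cells. All 37 of these markers had counts, though 5 of 6 Leydig, 5 of 6 macrophage and 4 of 7 erythroid markers averaged under 1 CPM. In the endothelial sum Pecam1 averaged 73.6 CPM and was the only 1 of 6 markers at 10 CPM or more. In the Sertoli sum 2 of 7 markers reached that level, the higher being Inha at 29.1 CPM. Doxorubicin rat 2 had the highest peritubular (26.6 CPM) and erythroid (15.1 CPM) sums. In the peritubular sum Myh11 made up 14.2 CPM and Des 7.32 CPM of that rat, while Acta2, Tagln and Cnn1 had log2 fold changes of -0.40, -0.28 and -0.26 between the groups, with none of the 5 past the edgeR threshold. In the erythroid sum Slc4a1, itself past that threshold with a log2 fold change of 1.28, made up 10.8 CPM of rat 2. The globin genes Hbb and Hba-a1 had log2 fold changes of -1.17 and -0.88 and every doxorubicin rat below every control rat, without passing (edgeR adjusted p = 0.192 and 0.206), and Alas2 had one of -0.55. The part of other cell types in the difference of Klhl33 was not tested. In such bulk libraries a change in the number of cells that hold a transcript and a change in its amount per cell cannot be told apart.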

How the data were processed

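RNA came from GFP-positive testis germ cells of 8 rats, and polyA-enriched libraries were made after PicoPure isolation, per the labels' protocols. Tools named in the submitters' processing notes, without role or order, are kallisto 0.48.0, featureCounts, fastp 0.23.2, Trimmomatic, DESeq2 1.40.2, MultiQC 1.12 and FastQC 0.11.9, beside the build rn6. The authors deposited estimated counts per gene, not normalized, and 32.5% to 33.6% of the values in a library were not whole, so values were rounded. The sources used here give neither the strand setting nor how shared reads were handled.

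Groups came from the sample titles. Tests used limma 3.58.1, DESeq2 1.42.0 and edgeR 4.0.16 in R 4.3.3. After filterByExpr and TMM scaling, the quasi-likelihood F test of edgeR (robust, no covariate) was run on every gene kept, with Benjamini-Hochberg adjustment over 16976 genes and a threshold of 0.05. SE is the log2 fold change over the root of F, and intervals cover 95%. Counting errors cover counting only. Log2 CPM used a prior count of 2. The procedure was tested on simulated data. Every pair of libraries differed beyond sampling noise (chi-square per degree of freedom at least 6.22). The p-values test the difference between the groups against the spread between rats.

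The listed genes, gene lists and naming rule were chosen with earlier results of these data known. All 9 genes found were named, with set genes from each list, those past the threshold, and the 3 genes most like each of Klhl20, Klhl33 and Enc1. Promoters came from RefSeq (GRCr8), matched by symbol, for 8 of the 10. Results were recomputed with limma-voom and DESeq2, with scaling by library size alone or by RLE factors, with no filter or one at a mean of 1 CPM, with a fit not made robust, and without each library in turn.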

Additional observations from a re-analysis of the deposited data

Results flagged for a closer look

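In 5 of 60 gene-by-group sets of 4 libraries, a single library stood apart from the other 3. By chance about 1 in 20 independent sets, or 3, would do so. The sets share the same 8 libraries and are not independent, so that number is only a guide. Not every gene named here was among the sets. None of the 5 flagged sets belonged to the 9 genes found (kelch genes and Cul3). Doxorubicin rat 2 stood above the other treated rats in Cdkn1a, at 36.0 CPM against 15.0 to 16.9 CPM, and in Plk1, at 174.1 CPM against 154.1 to 157.1 CPM. Control rat 1 stood below the other controls in Pml, at 5.77 CPM against 7.76 to 7.98 CPM, and above them in Sec31a, at 229.6 CPM against 203.0 to 207.2 CPM. Control rat 9 stood below the other controls in Spop, at 54.6 CPM against 58.7 to 59.3 CPM. Doxorubicin rat 2 was also well above the other treated rats in genes outside these sets. In Bax it stood at 90.5 CPM against 69.4 to 71.5 CPM, and in Slc4a1 at 10.8 CPM against 6.08 to 6.75 CPM. Both genes were picked after their values were seen, and genes outside the sets were not screened.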

How the results depend on the processing

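The log2 fold changes of the 9 genes were recomputed 133 times under the alternatives. Every one of these values stayed within 1 SD, taken between rats, of the value reported. This could hardly come out otherwise, because leaving 1 library out moves a group mean by less than that SD. It is therefore no measure of stability. The values ran from 0.29 to 0.37 for Klhl20, from 1.82 to 2.43 for Klhl33 and from 0.21 to 0.25 for Enc1. The sign changed in 3 alternatives each for Klhl7, Klhl10 and Klhl22 and in 8 for Cul3, whose values lay near 0, and in 0 for the other 5 genes. Klhl33 and Klhl10 gave no value under the filter of a mean of at least 1 CPM, which removed them. The calls changed with the setting. Over all genes 19 passed with edgeR, 173 with DESeq2 and 53 with the fit that was not robust, and 1 to 62 when 1 library was left out (1 without control rat 5 or doxorubicin rat 8, and 62 without doxorubicin rat 2). Of the 9 genes, 3 passed with edgeR and 0 to 3 when 1 library was left out. Of the p53 targets 3 passed with edgeR, 7 with DESeq2, 1 with no low-count filter (Eda2r), 6 with the fit that was not robust and 1 to 6 when 1 library was left out. Of the substrates 0 passed with edgeR, 1 with DESeq2 and 0 to 1 when 1 library was left out. With library size only, Enc1 was no longer past the threshold, at a log2 fold change of 0.22. The cause was not tested. The rat numbers of the groups are all different and the labels give no batch, so no paired or blocked analysis was made. Whether rats were matched in some other way is not known from the labels. Depth limits Klhl33 and Klhl10, with 8 to 99 and 16 to 46 counts a library.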
